A study of Mus musculus with 5 samples.

Results

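The interferon-inducible GTPases examined here were Gbp2, Igtp and Tgtp1, taken as the probes whose single platform gene symbol is one of these names. That rule found 4 of 19828 probes, 1 for Gbp2, 2 for Igtp and 1 for Tgtp1, and 3 of the 8452 named genes that had values throughout the 5 arrays. The cells were macrophages of C3H/HeJ mice, grown from bone marrow with human CSF-1, which drives precursors to become macrophages. They were left unexposed (0 h) or exposed to 10 µg per ml LPS of S. minnesota, a bacterial lipopolysaccharide, for 0.5, 2, 7 or 21 h. C3H/HeJ mice carry a mutated Tlr4, the LPS receptor, and respond weakly to LPS, a limit that all 5 groups share. Each time was measured on 1 two-colour cDNA array, with total RNA of whole C57BL6/J embryos of 17.5 days in the second channel, so differences between times rest on single arrays and were not tested.

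Guanylate binding proteins and immunity related GTPases are among the genes that interferons induce most strongly in mouse macrophages, and they act on the membranes of vacuoles that hold intracellular parasites and bacteria. Gbp2 is a guanylate binding protein that gathers on such vacuoles. Tgtp1, also named Irgb6, is an effector of the immunity related family, and Igtp, also named Irgm3, is a regulatory member that sits on the cell's own membranes and restrains the effectors. LPS reaches these genes mainly through interferon beta made after Tlr4 signalling, and interferon gamma of T and NK cells also induces them.

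The promoters are shown because interferon signals reach these genes through short DNA elements near the start site. Windows of 300 bases, from 250 before to 50 after the start, were taken from RefSeq (GRCm38.p6, the C57BL/6J reference and not the C3H/HeJ genome), where 3 of 3 members matched. Capitals mark the core of an interferon-stimulated response element (ISRE, searched on both strands as GAAA, any 2 bases, GAAA) and of a gamma-activated site (GAS, searched as TTC, any 3 bases, GAA, which reads alike on both strands); the searches do not overlap in these windows. The stretches around the cores of Tgtp2 and Irgm2, close relatives of Tgtp1 and Igtp on chromosome 11, are added for comparison.
Gbp2, chr3:142620413-142620712, plus strand: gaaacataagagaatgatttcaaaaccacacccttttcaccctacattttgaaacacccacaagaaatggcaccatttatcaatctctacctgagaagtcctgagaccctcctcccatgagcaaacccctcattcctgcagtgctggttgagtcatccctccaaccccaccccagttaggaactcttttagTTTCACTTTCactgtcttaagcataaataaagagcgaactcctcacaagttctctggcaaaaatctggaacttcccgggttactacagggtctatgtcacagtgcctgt
Igtp, chr11:58199306-58199605, plus strand: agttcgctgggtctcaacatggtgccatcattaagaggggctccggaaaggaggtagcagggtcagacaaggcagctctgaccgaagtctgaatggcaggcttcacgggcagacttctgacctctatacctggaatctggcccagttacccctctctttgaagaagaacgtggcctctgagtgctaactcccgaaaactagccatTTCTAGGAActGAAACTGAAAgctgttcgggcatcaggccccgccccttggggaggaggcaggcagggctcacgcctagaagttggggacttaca
Tgtp1, chr11:48992197-48992496, minus strand: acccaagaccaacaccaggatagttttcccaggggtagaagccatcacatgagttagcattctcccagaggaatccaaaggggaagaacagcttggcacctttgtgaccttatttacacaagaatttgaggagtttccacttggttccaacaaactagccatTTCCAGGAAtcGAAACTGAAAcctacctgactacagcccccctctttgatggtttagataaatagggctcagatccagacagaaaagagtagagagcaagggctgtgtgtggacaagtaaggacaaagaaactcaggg
Irgm2, chr11:58214888-58214936, plus strand: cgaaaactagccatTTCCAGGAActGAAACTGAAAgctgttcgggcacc
Tgtp2, chr11:49064259-49064307, minus strand: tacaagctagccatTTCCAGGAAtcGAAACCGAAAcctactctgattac

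In Igtp and Tgtp1 a GAS core stood just before an ISRE core, with 2 bases between them and the ISRE core on the strand of the gene. In the Igtp window the GAS core covered positions -45 to -37 and the ISRE core positions -34 to -25, counted from the start site. In Tgtp1 they lay at positions -88 to -80 and -77 to -68. Gbp2 held no GAS core in its window and 1 ISRE core, on the opposite strand, at positions -59 to -50. Of 32851 RefSeq promoter windows of the same length, 3.44% held the ISRE core, 8.30% the GAS core and 0.454% both. The joined element, the GAS core followed after any 2 bases by the ISRE core, was written down from these windows after they had been read. It contains both cores and occurred in 5 windows: those of Igtp, Tgtp1, Irgm2, Tgtp2 and Gm12185, all on chromosome 11. Related genes share sequence, so these are not 5 independent occurrences, and a match is a description of letters, not of a factor bound there.

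The values are log ratios of the deposited table, read as base 10 and centred on the median of all genes of each array. The base and the direction are not stated, and macrophage over embryo is the likely direction: at 0 h 6 of 8 macrophage markers were above 0, against 1 of 11 embryo markers and 0 of 6 fibroblast markers. Lyz2, the myeloid lysozyme, was at 1.13 and Hbb-b1, adult beta globin, at -1.86. Cd68 (-0.16) and Tyrobp (-0.05) lay below 0. The 0.5 h array stood apart: its correlation with the 0 h array was 0.49 across 18039 probes, beside 0.88 (2 h), 0.85 (7 h) and 0.77 (21 h) for the later arrays. The pooled SD between probes of a gene in the difference from 0 h, taken over 2968 genes, was 0.48 (0.5 h), 0.16 (2 h), 0.16 (7 h) and 0.19 (21 h). It serves as the error of these differences. For other pairs of times the pooled SD was taken in the difference between those times. Spread between cultures or hybridisations is not part of it. A difference of 2-fold, 0.301 in these units, is the size rule used below.

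The Gbp2 probe had a centred log ratio of 0.65 (0 h), -0.41 (0.5 h), 1.04 (2 h), 0.996 (7 h) and 0.34 (21 h). Gbp2 was above embryo on 4 arrays and below it on the 0.5 h array. On the log10 reading its ratio was 11.1-fold at 2 h and 4.42-fold at 0 h. In order, 2 and 7 h stood highest and did not differ beyond the SD between probes (gap 0.05, SD 0.20), then came 0 h, 21 h and 0.5 h, each lower than the one before by more than that SD.

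The Tgtp1 probe read 1.19 (0 h), 1.78 (0.5 h), 1.65 (2 h), 1.48 (7 h) and 0.69 (21 h). Tgtp1 was far above embryo throughout: at 0 h 5 of 8452 genes had a higher ratio, and at 2 h 15 did. Its 0.5, 2 and 7 h values did not differ from their neighbours in the order beyond the SD between probes (gaps 0.13 and 0.17, SDs 0.48 and 0.20), while 7 h exceeded 0 h by 0.29 and 0 h exceeded 21 h by 0.50. Tgtp1 and Tgtp2 are near-identical copies, and the probe sequence was not used here, so their signals cannot be told apart.

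Igtp averaged 0.50 ± 0.18 (0 h), 1.72 ± 1.03 (0.5 h), 0.82 ± 0.07 (2 h), 0.29 ± 0.09 (7 h) and 0.66 ± 0.34 (21 h) (SD, n = 2 probes). Both probes were above embryo on every array, and they were closest to each other at 2 h. In order, 0.5 h stood highest and 7 h lowest, and 2, 21 and 0 h did not differ from their neighbours beyond the SD between probes (gaps 0.17 and 0.16, SDs 0.22 and 0.19). The top place of 0.5 h rested mostly on probe 1762 (2.45), while probe 284 read 0.99 at 0.5 h, close to its 0.90 at 21 h. Among all genes, 252 had a higher ratio than the Igtp average at 0 h and 1098 at 7 h.

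**Figure D1:**
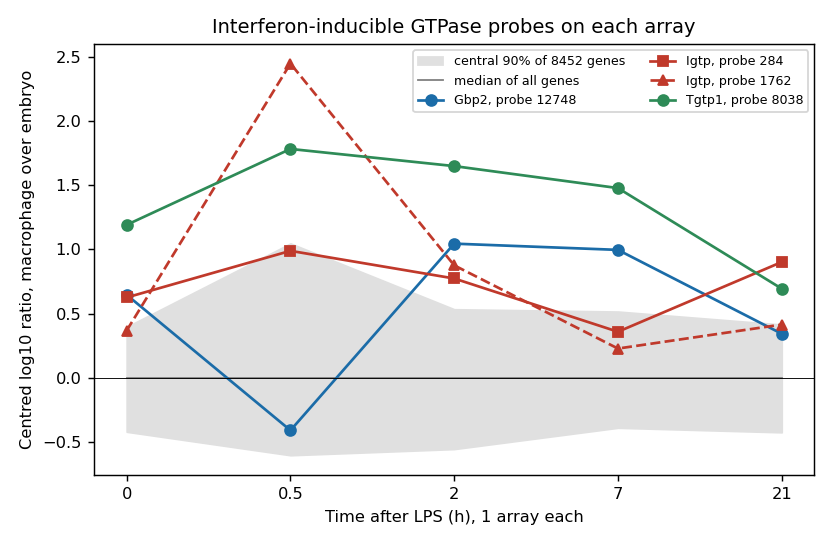
Centred log10 ratio (macrophage over embryo) of the 4 probes of Gbp2, Igtp and Tgtp1 against time after LPS in hours, 1 array per time, with the central 90% of 8452 genes shaded. Tgtp1 stays above the shaded range at all 5 times, Gbp2 dips to -0.41 at 0.5 h, and the 2 Igtp probes part most at 0.5 h (0.99 and 2.45).

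At 2 h against 0 h, all 3 GTPases were past the size rule upwards, where 4.24% of genes were. Tgtp1 was at 1.65 at 2 h, against 1.19 at 0 h, a difference of 0.46 or 2.87-fold. Gbp2 differed by 0.40 (2.51-fold) and Igtp by 0.33 ± 0.25 (SD, n = 2 probes), with 0.15 on one probe and 0.51 on the other. The differences were 2.79, 2.43 and 2.00 times the pooled SD between probes. Of 8452 genes, 147 had a larger difference than Tgtp1, 199 than Gbp2 and 300 than Igtp. Ratios were more widely spread at 2 h than at 0 h (SD across probes 0.42 and 0.33), and this moves with the result: with each array scaled to one median absolute deviation none of the 3 passed the size rule, Gbp2 was at 0.22 and Tgtp1 at 0.14. None passed it after quantile normalization or with the mean-ratio trend removed, where Tgtp1 was at -0.26 and -0.0295. Of 8 macrophage markers 3 were past the size rule upwards at 2 h, and their summed ratio was 6.73 at 2 h, against 5.45 at 0 h. Cd68 (-0.15), Tyrobp (-0.11) and Coro1a (-0.04) were lower, inside the rule. Among the 3 past the rule, Fcgr1 (0.53) is also counted with the interferon-stimulated effectors below. Embryo markers moved the other way: 0 of 11 were past the rule upwards and 3 downwards, where 2.58% of genes were lower. Their summed ratio was -11.5 at 2 h, against -9.52 at 0 h, and that of the fibroblast markers -7.19, against -5.42. The part of the wider spread or of these markers in the GTPase differences was not tested.

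At 7 h against 0 h, Gbp2 alone was past the size rule (0.35, 2.24-fold), 1 of 3 where 3.35% of genes were higher. Tgtp1, at 1.48 at 7 h against 1.19 at 0 h, differed by 0.29, just inside the rule. Igtp differed by -0.20 ± 0.09 (SD, n = 2 probes), below 0 on both probes (-0.27 and -0.14). After quantile normalization Gbp2 was at 0.15 and Tgtp1 at -0.21, and Igtp (-0.40) was past the rule downwards. From 2 to 7 h Gbp2 moved by -0.05 and Tgtp1 by -0.17. Igtp moved by -0.53 ± 0.17, past the size rule downwards, as 5.36% of genes were in that step.

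At 21 h against 0 h, Tgtp1 and Gbp2 were past the size rule downwards, 2 of 3 where 4.69% of genes were, and Igtp was not past it. Tgtp1 was at 0.69 at 21 h, against 1.19 at 0 h, a difference of -0.50 and 2.63 times the pooled SD between probes. Gbp2 differed by -0.303, at the edge of the rule and 1.60 times that SD. Igtp differed by 0.16 ± 0.16, with 0.28 and 0.05 on its probes. Set against 7 h, which leaves out the 0 h array, Tgtp1 was lower at 21 h by -0.78 and Gbp2 by -0.65 (7.75% of genes were lower past the rule). In that step Igtp was higher by 0.37 ± 0.25, as 5.96% of genes were. The steps share the 7 h array with the differences above.

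The 0.5 h array gave the widest and least even values. Igtp differed from 0 h by 1.22 ± 1.21 (SD, n = 2 probes), with 0.36 on one probe and 2.08 on the other. Tgtp1 differed by 0.59 and Gbp2 by -1.06. By the size rule 2 members were higher and 1 lower, on an array where 19.9% of genes were higher and 10.6% lower. Embryo markers moved there too: 8 of 11 were past the rule upwards and 2 downwards, and their summed ratio was -4.22 at 0.5 h, against -9.52 at 0 h. Their part in the GTPase values was not tested. With the mean-ratio trend removed all 3 were past the rule downwards, with Tgtp1 at -1.82 and Igtp at -0.52.

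**Figure D2:**
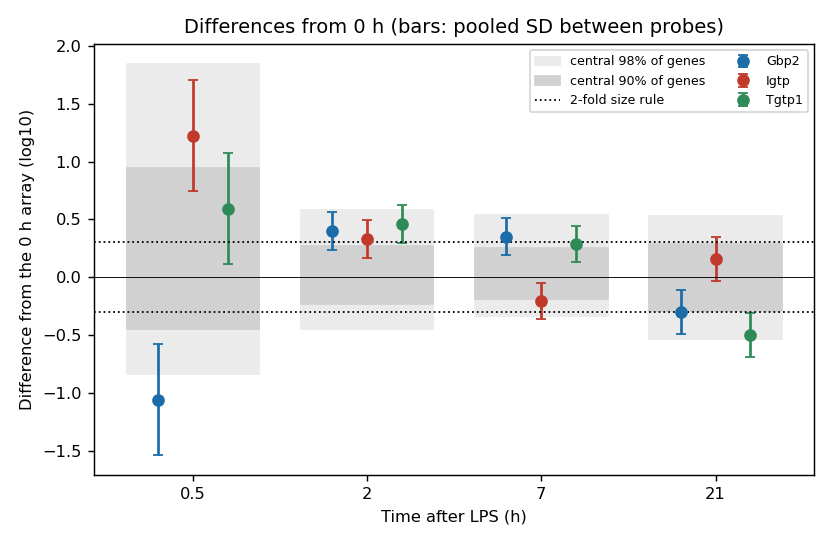
Difference of the log10 ratio from the 0 h array at 0.5, 2, 7 and 21 h for Gbp2, Igtp and Tgtp1, with bars of 1 pooled SD between probes, the central 90% and 98% of 8452 genes shaded and the 2-fold size rule dotted. All 3 points lie above the upper dotted line at 2 h, and at 21 h Tgtp1 (-0.50) and Gbp2 (-0.303) lie at or below the lower one.

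Position in the probe list moved with the courses of Gbp2 and Tgtp1, and at 21 h with that of Igtp. Over all 18039 probes 9.85% were above their 0 h value at 2 and 7 h and below it at 21 h, the order that Gbp2 and Tgtp1 follow. Among the probes within 200 numbers on either side, 59 of 373 (15.8%) shared it around Gbp2 and 68 of 363 (18.7%) around Tgtp1. Around the Igtp probes it was 24 of 380 (6.32%) and 11 of 382 (2.88%). There 53 of 380 and 55 of 382 neighbours were past the size rule upwards at 21 h, beside 1000 of all 18039 probes. Their medians were -0.01 and -0.01 at 7 h, and 0.03 and 0.05 at 21 h. The neighbours' medians at 7 h were 0.10 around Gbp2 and 0.08 around Tgtp1, beside 0.01 over all probes, and at 21 h -0.03 and -0.05, beside -0.01. At 2 h 15 of 373 neighbours stood as high as Gbp2 or higher and 10 of 363 as high as Tgtp1. At 7 h 43 of 373 stood as high as Gbp2 and 49 of 363 as high as Tgtp1. At 21 h 58 of 373 were as low as Gbp2 or lower and 8 of 363 as low as Tgtp1. The part of position in these courses was not tested beyond this. With a running median over 400 probe numbers removed, no member was past the size rule at 7 h and 1 was at 21 h.

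Probes with a ratio like the member's at 0 h (within 0.25) make a closer comparison, one added after the values were seen and open to the chance value of the 0 h array that it selects on. Gbp2 had 43 such neighbours. Their median was 0.07 (2 h), 0.14 (7 h) and -0.33 (21 h), and 23 of the 43 were as low as Gbp2 or lower at 21 h. At 2 h 6 of 43 were as high as Gbp2 or higher. Tgtp1 had 2 such neighbours, and elsewhere on the array 78 probes of like ratio had a median of 0.03 at 2 h and -0.55 at 21 h. Of those 78, 9 were as high as Tgtp1 or higher at 2 h and 39 as low or lower at 21 h. The lower values of Gbp2 and Tgtp1 at 21 h were thus near the middle of probes of like ratio. For the first Igtp probe (number 284), 45 of 1531 probes of like ratio elsewhere stood as high or higher at 21 h, and 8 of 30 within its own stretch.

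The stretches also differed in how far the 0.5 h array followed the 0 h array. The correlation across neighbouring probes was 0.33 around Gbp2 and 0.11 around Tgtp1, beside 0.63 and 0.73 around the Igtp probes. Of these 4 stretches, those of Gbp2 and Tgtp1 were the ones where the 0.5 h array followed the 0 h array less; other stretches were not ranked. At the second Igtp probe (number 1762) 2 of 382 neighbours differed at 0.5 h by as much as its 2.08 or more.

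**Figure D3:**
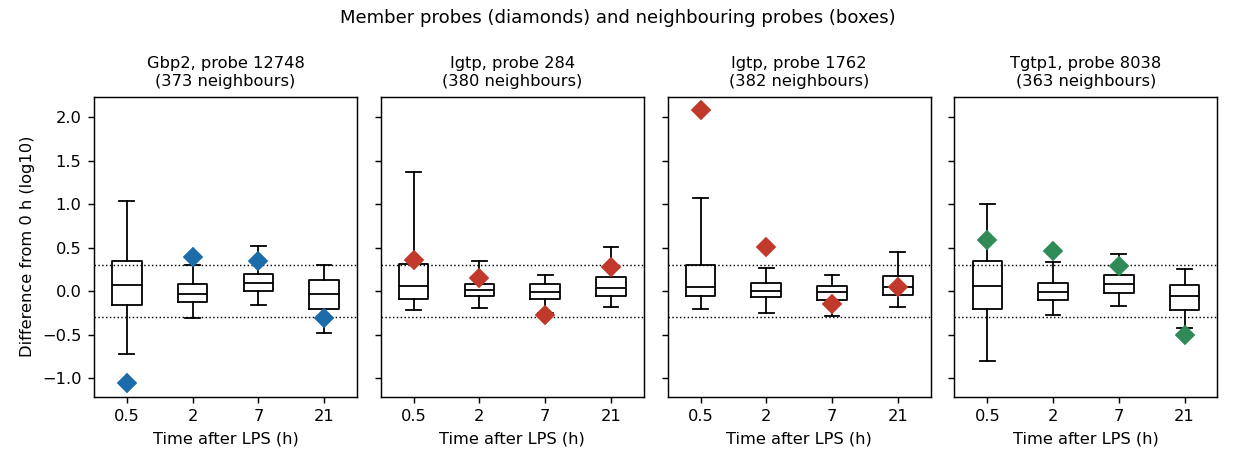
Difference from the 0 h array (log10) of each member probe (diamond) and of the probes within 200 numbers of it (box: quartiles and median, whiskers: 5th to 95th percentile) at 0.5, 2, 7 and 21 h, with the 2-fold size rule dotted. At 2 h the diamonds of Gbp2, Tgtp1 and Igtp probe 1762 lie above the whiskers and that of Igtp probe 284 (0.15) lies within them.

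Of 33 other interferon-inducible GTPase names listed, 2 were measured, Irgm2 and Ifi47, both of the immunity related family. Irgm2, a regulatory relative whose gene lies next to Igtp on chromosome 11, read 0.48 (0 h), -0.22 (0.5 h), 0.14 (2 h), 0.25 (7 h) and 0.32 (21 h). It was past the size rule downwards at 2 h (-0.35), where 2.58% of genes were, and Igtp stood at 0.33 upwards; the difference between these genes was not tested. Ifi47, also named Irgd, lay between 0.00 and 0.15 on all 5 arrays and differed from 0 h by -0.05, -0.05, 0.10 and 0.05. Of these 2, the Irgm2 window holds the joined GAS and ISRE element and the Ifi47 window neither core.

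Of 34 genes of interferon signalling listed 14 were measured, and interferon gamma and its receptor chains were not analysed here. At 2 h 2 were higher and 0 lower, where 4.24% and 2.58% of all genes were: Irf7 (0.72 ± 0.45, SD, n = 2 probes), the transcription factor that amplifies type I interferon, and Irf5 (0.33), a factor downstream of Toll-like receptors. The list's median was 0.05, beside -0.01 over all genes. At 7 h Irf5 (0.51) and the phosphatase gene Ptpn11 (0.36 ± 0.41, n = 2 probes) were higher, where 3.35% of all genes were, with a median of 0.05 beside 0.02. At 21 h 2 were higher, as 4.33% of genes were: Jak1 (0.36 ± 0.02, n = 2 probes), a kinase of the interferon receptors, and Stat2 (0.31), a subunit of the factor that binds the ISRE. The median was 0.09 beside 0.00. Irf1, a factor induced by interferon gamma, differed by 0.02 (2 h), 0.15 (7 h) and -0.03 (21 h). At 0.5 h Irf7 (1.52 ± 0.87, n = 2 probes), Ptpn6 (1.35) and Ifnar2 (0.47 ± 0.29, n = 3 probes) were higher and 0 lower, where 19.9% and 10.6% of all genes were.

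Of 50 interferon-stimulated effectors listed 29 were measured. At 2 h 7 were higher, where 4.24% of all genes were. Among them were Ubd (0.76), a ubiquitin-like modifier, Oas1a (0.69), a sensor of viral RNA, and Psmb9 (0.43 ± 0.45, SD, n = 2 probes), an immunoproteasome subunit. Fcgr1 (0.53), also on the macrophage marker list, was another. H2-Eb1 (-0.37) was lower, as 2.58% of all genes were. The median was 0.07 beside -0.01 over all genes. At 7 h 5 were higher, where 3.35% of all genes were, led by Ubd (0.75) and the proteasome activator Psme2 (0.64 ± 0.59, n = 2 probes). Eif2ak2 was lower (-0.36 ± 0.42, n = 2 probes), as 1.4% of genes were. The median was 0.06 beside 0.02. At 21 h 6 were lower, where 4.69% of all genes were, among them Ubd (-0.79), Cxcl10 (-0.45) and Ifit1 (-0.32 ± 0.03, n = 2 probes). Ifi204 (0.32) was higher, as 4.33% of genes were. The median was -0.01 beside 0.00. At 0.5 h 4 were higher and 8 lower, where 19.9% and 10.6% of all genes were, with a median of -0.14 beside -0.01.

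Gbp2's order, past the size rule upwards at 2 and 7 h and downwards at 21 h, was met by 33 of 8452 genes (0.390%), Gbp2 among them. The order was taken from Gbp2's own values, and the lists were chosen with earlier results of these data known. The counts are therefore a description and not a test. Among 60 measured genes of the fixed interferon and autophagy lists 2 met the order, Psmb9 and Ubd. Psmb9 met it only as the mean of its 2 probes. Probe 8276 was at 0.11 (2 h) and 0.23 (7 h) and probe 10018 at -0.26 (21 h), all inside the size rule. The Ubd probe (number 8498) and the 2 Psmb9 probes (numbers 8276 and 10018) lie beyond the 200 numbers examined around the Tgtp1 probe (8038). How frequent the order was at their own positions was not tested.

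**Figure D4:**
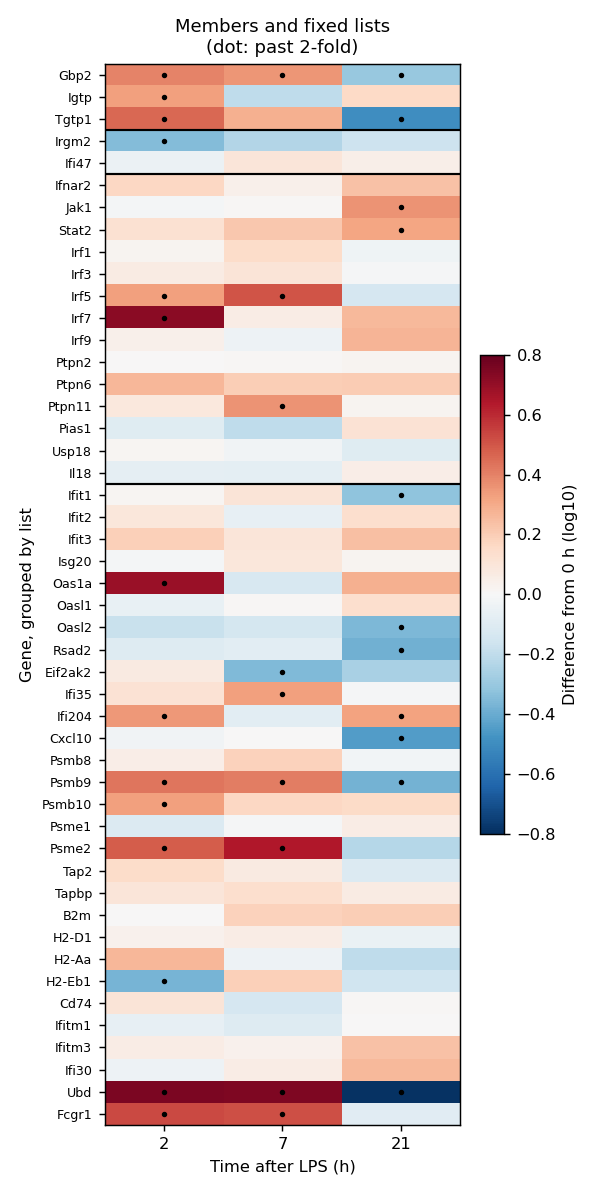
Difference from the 0 h array (log10, colour) at 2, 7 and 21 h for the 3 members, 2 related GTPases, 14 interferon signalling genes and 29 interferon-stimulated effectors, in that order down the page, with a dot where the 2-fold size rule is passed. Gbp2, Psmb9 (mean of 2 probes) and Ubd carry dots at all 3 times, upwards at 2 and 7 h and downwards at 21 h.

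Autophagy genes were listed because its ubiquitin-like conjugation genes help place immunity related GTPases on the right membranes. The list also holds autophagy genes that are not conjugation genes, Ulk1 among them, and 15 of 23 listed were measured. At 2 h 1 was higher, Atg7 (0.43 ± 0.52, SD, n = 3 probes), the activating enzyme. At 7 h Atg12 (0.34 ± 0.08, n = 2 probes), a ubiquitin-like protein, was higher, and at 21 h Ulk1 (0.38), a kinase that starts autophagy. At these times 0 were lower. Each is 1 of 15 genes, where 4.24%, 3.35% and 4.33% of all genes were higher. The medians were 0.03, 0.00 and 0.03, beside -0.01, 0.02 and 0.00 over all genes. At 0.5 h Gabarapl1 (0.66 ± 0.22, n = 2 probes) was higher and Atg10 (-0.42) lower, where 19.9% and 10.6% of all genes were.

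T and NK cells make interferon gamma, and T cells also express Tgtp1, so their markers are given beside it. Of 14 listed 5 were measured, 2 of the 5 above 0 at 0 h, and their summed ratio was -0.12 (0 h), 1.72 (0.5 h), -0.28 (2 h), 0.20 (7 h) and -0.31 (21 h). Cd3g, a subunit of the T cell receptor complex, was below 0 on all 5 arrays (-0.47 at 0 h). Cd3d was at 0.10 at 0 h and past the size rule upwards at 7 h (0.54), as 3.35% of genes were. Gzma, a granzyme of cytotoxic cells, was above 0 on all 5 arrays (0.42 at 0 h). It was past the rule downwards at 21 h (-0.32), as 4.69% of genes were, the direction of Tgtp1. The other markers were inside the rule at 21 h, Cd3g at 0.29 and Cd3d at 0.18 upwards, Nkg7 at -0.25 and Gzmb at -0.08 downwards. Gzmb was past the rule upwards at 0.5 h (0.995), as was Cd3d (1.14), where 19.9% of genes were. At 2 h none of the 5 was past it. The part of other cells in the Tgtp1 values was not tested, and with RNA of a whole culture more cells of a type and more RNA per cell cannot be told apart. The 1 measured B cell marker (Cd79b) was below 0 at 2, 7 and 21 h. Of the 2 measured dendritic cell markers Fscn1 was below 0 at these times, while Ccr7 was at 0.12 (2 h), 0.11 (7 h) and -0.04 (21 h). Of 6 neutrophil markers 1 was above 0 at 2 h, 2 at 7 h and 2 at 21 h, Elane at all 3 times (0.26, 0.23 and 0.26) and Mpo at 7 and 21 h.

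The courses were then set against all genes, by the root mean square distance of the differences from 0 h, which all share the 0 h array. Over 2, 7 and 21 h the distance between Gbp2 and Tgtp1 was 0.12, with 39 genes closer to Gbp2 and 16 closer to Tgtp1. Igtp was at 0.42 from Gbp2, with 6577 genes closer, and at 0.48 from Tgtp1. With 0.5 h included Gbp2 and Tgtp1 were at 0.83, and 7258 genes were closer to Gbp2.

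Over the 4 differences the genes closest to Gbp2 were Ipo8 (distance 0.10), Lipf (0.13), Mastl (0.14), 1810006J02Rik (0.16) and the Fc receptor gene Fcgr1 (0.17). Those closest to Tgtp1 were Eps8l1 (0.11), Pinx1 (0.12), Nkx2-6 (0.13), Zfp219 (0.14) and Tstd3 (0.14). Those closest to Igtp were Slc46a2 (0.03), Susd4 (0.07), Kctd16 (0.09), Entpd5 (0.09) and Pttg1ip2 (0.09). Over 2, 7 and 21 h alone the closest were 2010320M18Rik, Gins2 and Nkx2-6 to Gbp2, Ephx3, Eps8l1 and 2310040G24Rik to Tgtp1, and Slc46a2, Dnmt1 and Rbm48 to Igtp, at distances of 0.01 to 0.06. Of the 21 genes named here as closest, 4 have a probe within 200 numbers of a member probe: Lipf and Fcgr1 near Gbp2, Entpd5 near Igtp, and Ephx3, whose course was close to Tgtp1, near Gbp2.

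**Figure D5:**
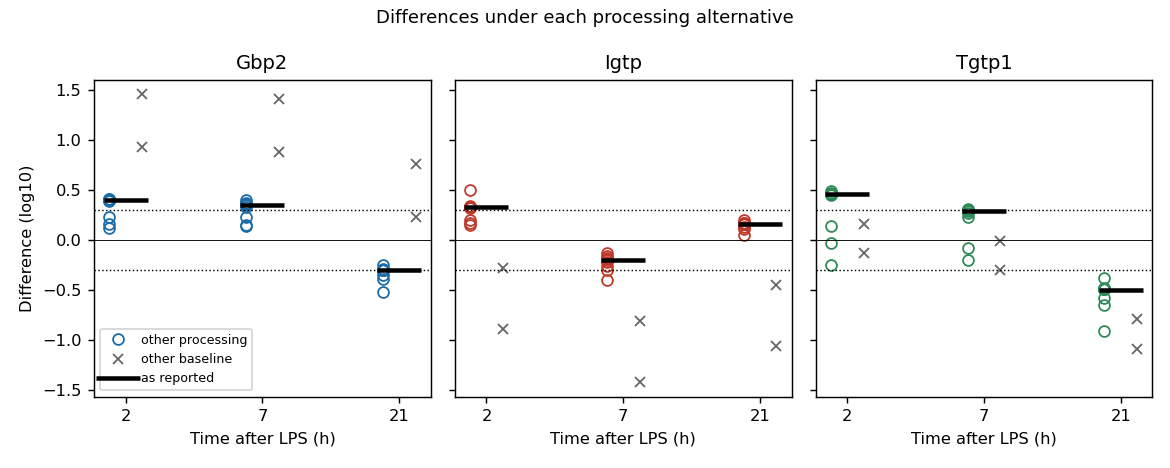
Difference (log10) of Gbp2, Igtp and Tgtp1 at 2, 7 and 21 h as reported (bar), under other processing (circles) and with another baseline array (crosses), with the 2-fold size rule dotted. Gbp2 keeps its sign under all circles at the 3 times, and Tgtp1 keeps it at 21 h but not at 2 and 7 h, where its circles reach -0.26 and -0.21.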

How the data were processed

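The authors deposited 1 log ratio per probe for each array, read here as log10. Base, centring, direction, scanner and normalization are not stated, and spot intensities were not analysed here. Precision is limited by the number of arrays. Of 19828 probes 14759 had 1 platform symbol, 170 several and 4899 none, and 14628 were updated through Entrez identifiers in RefSeq (GRCm38.p6). The deposited medians were 0.04 (0 h), 0.07 (0.5 h), 0.05 (2 h), 0.00 (7 h) and 0.03 (21 h).

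Probes of a gene with a value on all 5 arrays (13534 probes, 8452 genes) were averaged and centred on the median over genes of each array, and the 0 h array was subtracted. With 1 array per time no test was run. Members, lists and size rule were chosen with earlier results of these data known. Named were the members, list genes past the size rule (examples where many), and the 5 or 3 closest courses. The averaging and size rule were tested on simulated data. Alternatives changed centring, scaling, trend, baseline, probe joining, filter, log base and size rule. Python 3.11.15, numpy 2.4.6, pandas 2.3.3, statsmodels 0.14.6 and matplotlib 3.10.9 were used.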

Additional observations from a re-analysis of the deposited data

How the results depend on the processing

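Each time had 1 array, so leaving out a sample would empty its group, and no paired analysis was possible because each time had a single array. The cause was not tested. Without the 0.5 h array in the filter and the centring, an alternative chosen after seeing the data, 3, 1 and 2 members were past the size rule at 2, 7 and 21 h, as reported. Signal over background is unknown.

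At 2 h the count of members past the size rule was 0 after quantile normalization, with one median absolute deviation for all arrays, with the mean-ratio trend removed, reading the values as log2 or natural log and a 3-fold rule, and 1 against the mean of 0 h and 0.5 h. At 7 h it was 2 with centring over probes, 0 with either the mean-ratio trend or the running median over probe numbers removed, under both other log bases and under a 3-fold rule, and 3 under a 1.5-fold rule. Against 0.5 h it was 3 and against the mean of 0 h and 0.5 h it was 2. After quantile normalization it was 1 as reported, but for Igtp downwards. At 21 h it was 1 without centring, with centring over probes, with the running median removed and under a 3-fold rule, and 0 under both other log bases. Against 0.5 h it was 3 at 21 h, with Gbp2 upwards and Igtp and Tgtp1 downwards. Against the mean of 0 h and 0.5 h it was 2 at 21 h, Igtp and Tgtp1 downwards and not Gbp2. At 2 h it was 2 against 0.5 h, with Gbp2 upwards and Igtp downwards. At 0.5 h the count stayed between 2 and 3, but 0 were higher and 3 lower with the trend removed, and 0 higher and 2 lower after quantile normalization.

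After quantile normalization Igtp was at 0.24 and Tgtp1 at -0.87 at 0.5 h, Gbp2 at 0.12 and Tgtp1 at -0.26 at 2 h, Gbp2 at 0.15, Igtp at -0.40 and Tgtp1 at -0.21 at 7 h, and Gbp2 at -0.53 and Tgtp1 at -0.91 at 21 h. Scaled to one median absolute deviation, Igtp was at 0.55 and Tgtp1 at -0.26 at 0.5 h, and Gbp2 at 0.22 and Tgtp1 at 0.14 at 2 h. With the mean-ratio trend removed, Igtp was at -0.52 and Tgtp1 at -1.82 at 0.5 h, Gbp2 at 0.15, Igtp at 0.15 and Tgtp1 at -0.0295 at 2 h, and Gbp2 at 0.14 and Tgtp1 at -0.0818 at 7 h. The Igtp probe of highest mean ratio gave 2.06 at 0.5 h and 0.50 at 2 h.

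Against the 0.5 h array Gbp2 was at 1.46 at 2 h, 1.41 at 7 h and 0.75 at 21 h, Igtp at -0.89, -1.43 and -1.06, and Tgtp1 at -0.13, -0.31 and -1.09. Against the mean of the 0 h and 0.5 h arrays Gbp2 was at 0.93, 0.88 and 0.23, Igtp at -0.28, -0.82 and -0.45, and Tgtp1 at 0.16, -0.00931 and -0.79. With the 0 h array as baseline, Gbp2 kept its sign at 2, 7 and 21 h under 10 of 10 alternatives each, as did Igtp, while Tgtp1 kept it under 8 of 10 at 2 h, 8 of 10 at 7 h and 10 of 10 at 21 h. The percentages of all genes past the size rule also moved: at 7 h they were 3.35% higher and 1.4% lower as reported, 3.28% and 3.95% after quantile normalization, and 2.02% and 2.28% with the trend removed. At 0.5 h they were 12.9% and 11.0% after quantile normalization and 10.3% and 12.7% with the trend removed, against 19.9% and 10.6% as reported. At 21 h, 7.13% were higher and 7.44% lower after quantile normalization, and 6.79% and 6.68% scaled to one median absolute deviation. At 2 h the lower share was 2.58% as reported and 1.82% with the trend removed.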

Other observations

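The cores searched in the GTPase promoters were also counted in the other lists. Of 26 measured interferon-stimulated effectors with a RefSeq window, 9 held the ISRE core and 8 the GAS core. The joined element was written down from the GTPase windows and occurred only in the 5 windows named above. Its absence from these 26 was thus given by that search and sets nothing apart. Of 12 interferon signalling genes with a window 1 held the ISRE core and 2 the GAS core, and of 13 genes of the autophagy list 1 and 3. These counts are by gene. Over all genes with a window, 1079 of 27025 held the ISRE core and 2582 the GAS core. By window, the shares were 3.44% and 8.30%.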
